A study of Mus musculus with 14 samples.

Results

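The reactive astrocyte panel is a set of 37 marker genes that are used to score astrocytes responding to injury or inflammation. Its members were taken by symbol from the table of 32830 genes, and all 37 had a row. By the usual division of the panel, 13 members are pan-reactive genes, 12 are A1 genes and 12 are A2 genes. They are described here in mouse cerebral cortex at 14 days of age, in SW strain animals carrying Aldh1l1-GFP, a transgene in which regulatory sequence of the astrocyte gene Aldh1l1 drives a green fluorescent protein. The labels name no injury, infection or drug, so the animals are taken as untreated. Upper and deep cortical layers were dissected by hand, and 14 RNA-seq libraries were made. They comprise 3 of GFP-positive cells (astrocytes) from upper and 3 from deep layers, 2 of GFP-negative cells (non-astrocytes) from upper and 2 from deep layers, and 2 of undissociated tissue (bulk tissue) from upper and 2 from deep layers. The astrocyte fraction is defined by the reporter, so it holds the cells in which the transgene was active, and the non-astrocyte fraction holds all other living cells that survived papain treatment and sorting. Groups were read from the sample titles, and for 5 libraries the cell type field names bulk tissue against the title. The labels do not say whether libraries of a group came from separate or pooled animals.

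Astrocytes respond to damage and infection by changing shape and gene expression. Cytokines that act through gp130 receptors and STAT3 induce intermediate filament genes and acute-phase genes, while interferons and NF-kappaB signalling induce chemokines, complement and antigen presentation genes. The panel was assembled from mouse astrocytes after systemic lipopolysaccharide (A1 genes), after focal ischaemia (A2 genes) or after both (pan-reactive genes). Many of these genes are also used by microglia, endothelial cells, pericytes, smooth muscle cells and meningeal fibroblasts, which stay in the GFP-negative fraction when astrocytes are sorted by this reporter. The comparisons below ask which panel genes were carried by healthy sorted astrocytes, which by the GFP-negative cells, and whether any differed between layers.

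The unit is the normalised read count, a count per gene that the authors had divided by a size factor for the library. The libraries held 18226457 to 30316765 reads in genes. Differences are log2 ratios, fitted with limma on log2(value + 1) over all 22575 genes that reached a value of 10 in at least 2 libraries. A gene was called at a Benjamini-Hochberg adjusted p below 0.05. Of the members 36 entered the fit, and Slc10a6 was too low. The sort separated the fractions as labelled. Aldh1l1 averaged 3694 ± 750 in astrocytes (SD, n = 6) and 114.9 ± 16.6 in non-astrocytes (SD, n = 4), and 917.2 ± 184 in bulk tissue (SD, n = 4). Summed over 10 astrocyte markers, astrocytes were at 3940% of non-astrocytes. Non-astrocytes were at 24.4-fold the bulk tissue level for 10 microglia markers, at 27.1-fold for 10 mural cell markers and at 8.39-fold for 10 endothelial markers. For 10 neuron markers they were at 4.68% of bulk tissue, so the non-astrocyte libraries were poor in neuronal transcripts. No marker of any list was at 0 in every library.

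Promoter windows were searched for the motifs of the pathways named above and for the AP-1 motif. RefSeq (GRCm38.p6) windows of 300 bases around the gene start were at hand for 31 of the 37 members, and both strands were searched. The STAT motif TTCCNGGAA was found in 2 of the 31 windows (6.45%, against 1.35% of 27025 genes), those of Gfap and Steap4. The interferon response core, GAAA and a further GAAA apart by 2 bases, was found in 7 (22.6%, against 3.99%), those of Cxcl10, H2-T23, Gbp2, Fbln5, Srgn, Tgm1 and Tm4sf1. The NF-kappaB motif, GGGA and TTCC apart by 2 bases, was found in 3 (9.68%, against 1.63%), those of Cxcl10, Gbp2 and Tm4sf1. The AP-1 motif TGANTCA was found in 6 (19.4%, against 8.97%), those of Cxcl10, Osmr, Cp, Gbp2, Sphk1 and Emp1. A motif match is a description of letters and not of binding. The 4 promoters below are shown since Gfap and Steap4 share the STAT motif and were among the highest and the lowest members in sorted astrocytes, while Cxcl10 and Gbp2 hold the other motifs together. Each runs 5′ to 3′ on the gene's strand from 250 bases before the RefSeq start to 30 bases after it, with the motif matches in capitals. Gfap lies at chr11:102897171-102897450 on the minus strand, Steap4 at chr5:7960222-7960501 on the plus strand, Cxcl10 at chr5:92348860-92349139 on the minus strand and Gbp2 at chr3:142620413-142620692 on the plus strand.
Gfap: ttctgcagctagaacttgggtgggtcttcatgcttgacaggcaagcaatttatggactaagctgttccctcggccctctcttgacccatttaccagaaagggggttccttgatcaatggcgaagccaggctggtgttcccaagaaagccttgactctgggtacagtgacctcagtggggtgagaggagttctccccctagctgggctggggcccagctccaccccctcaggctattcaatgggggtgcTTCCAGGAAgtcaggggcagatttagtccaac
Steap4: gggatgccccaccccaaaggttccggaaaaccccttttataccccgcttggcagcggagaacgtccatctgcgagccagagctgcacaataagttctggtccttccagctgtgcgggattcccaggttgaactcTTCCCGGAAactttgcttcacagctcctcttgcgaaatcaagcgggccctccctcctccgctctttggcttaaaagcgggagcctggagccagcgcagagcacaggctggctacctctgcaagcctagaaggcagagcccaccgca
Cxcl10: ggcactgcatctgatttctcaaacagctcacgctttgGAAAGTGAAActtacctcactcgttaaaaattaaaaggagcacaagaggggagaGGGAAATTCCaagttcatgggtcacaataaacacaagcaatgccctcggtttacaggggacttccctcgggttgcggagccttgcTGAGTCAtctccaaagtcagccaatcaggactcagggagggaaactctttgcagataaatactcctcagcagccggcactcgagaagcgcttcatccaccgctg
Gbp2: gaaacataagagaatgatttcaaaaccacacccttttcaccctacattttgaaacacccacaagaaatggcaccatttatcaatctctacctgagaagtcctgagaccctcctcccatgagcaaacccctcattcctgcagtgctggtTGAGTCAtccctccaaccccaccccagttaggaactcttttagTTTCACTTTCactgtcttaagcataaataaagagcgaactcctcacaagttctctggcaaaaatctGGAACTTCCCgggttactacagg
The RefSeq starts of Gfap, Steap4 and Gbp2 lie inside the longer GENCODE genes. In Gfap the STAT match straddles the RefSeq start, ending 7 bases into the transcript. In Steap4 it begins 116 bases before the start. In Cxcl10 the interferon, NF-kappaB and AP-1 matches follow one another and begin 213, 159 and 74 bases before the start. In Gbp2 the AP-1 match begins 102 and the interferon match 59 bases before the start, the latter inside the GENCODE gene. Its NF-kappaB match begins 8 bases after the start.

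Most of the panel was higher in the GFP-negative cells. In astrocytes against non-astrocytes (n = 6 and 4), 7 of the 36 members were called higher and 28 lower, and 1, H2-T23, was not called. Over all genes 66.3% were called, 29.6% higher and 36.8% lower. The 7 members that rose in astrocytes were Gfap, Amigo2, Ptx3, Serpina3n, Cd44, Aspg and Sphk1. The members' median log2 difference was -3.78, with Steap4 at its fitted value or at its bound, against -0.08 over all genes. By division, 4 of 13 pan-reactive genes were higher and 9 lower, 1 of 12 A1 genes was higher and 10 lower, and 2 of the 11 tested A2 genes were higher and 9 lower. Without overlap between the libraries, 6 members were higher (21.7% of all genes) and 27 lower (30.1% of all genes), Aspg and Lcn2 being the called members whose libraries overlapped. In bulk comparisons of this kind, fewer cells of a type and less RNA per cell cannot be told apart. In the plot of all values by library, the astrocyte points lie to the right of the non-astrocyte points for these few genes and far to the left for most.

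**Figure D1:**
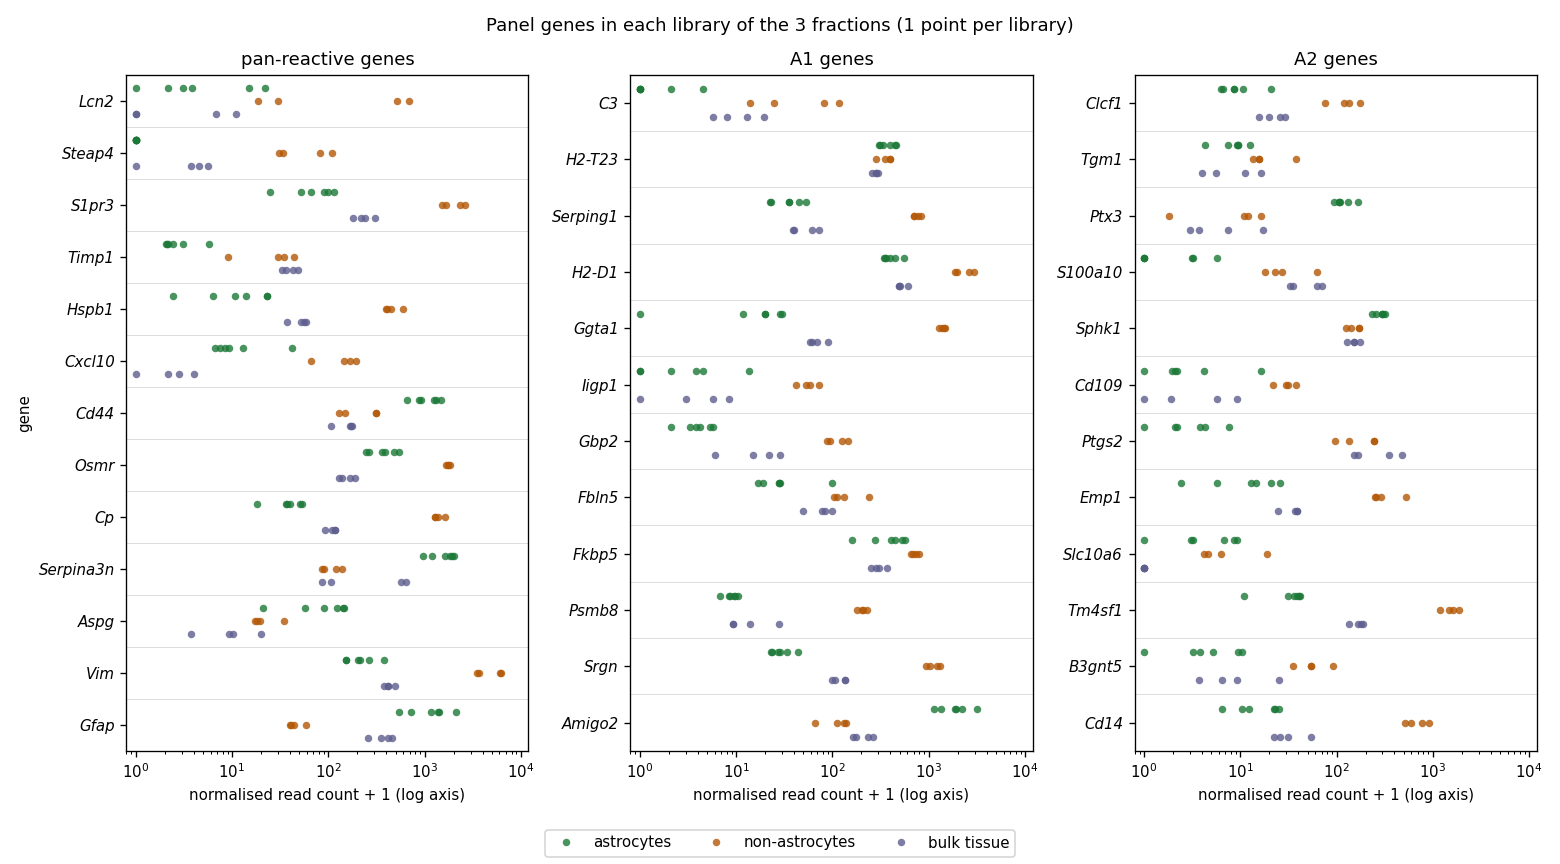
Normalised read counts of all 37 panel genes in each of the 14 libraries (log axis, 1 added; 1 point per library), with astrocytes, non-astrocytes and bulk tissue from top to bottom within each gene. Gfap, Amigo2, Ptx3, Serpina3n, Cd44 and Sphk1 have all astrocyte points above all non-astrocyte points, and Steap4 is at 0 in all 6 astrocyte libraries.

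**Figure D2:**
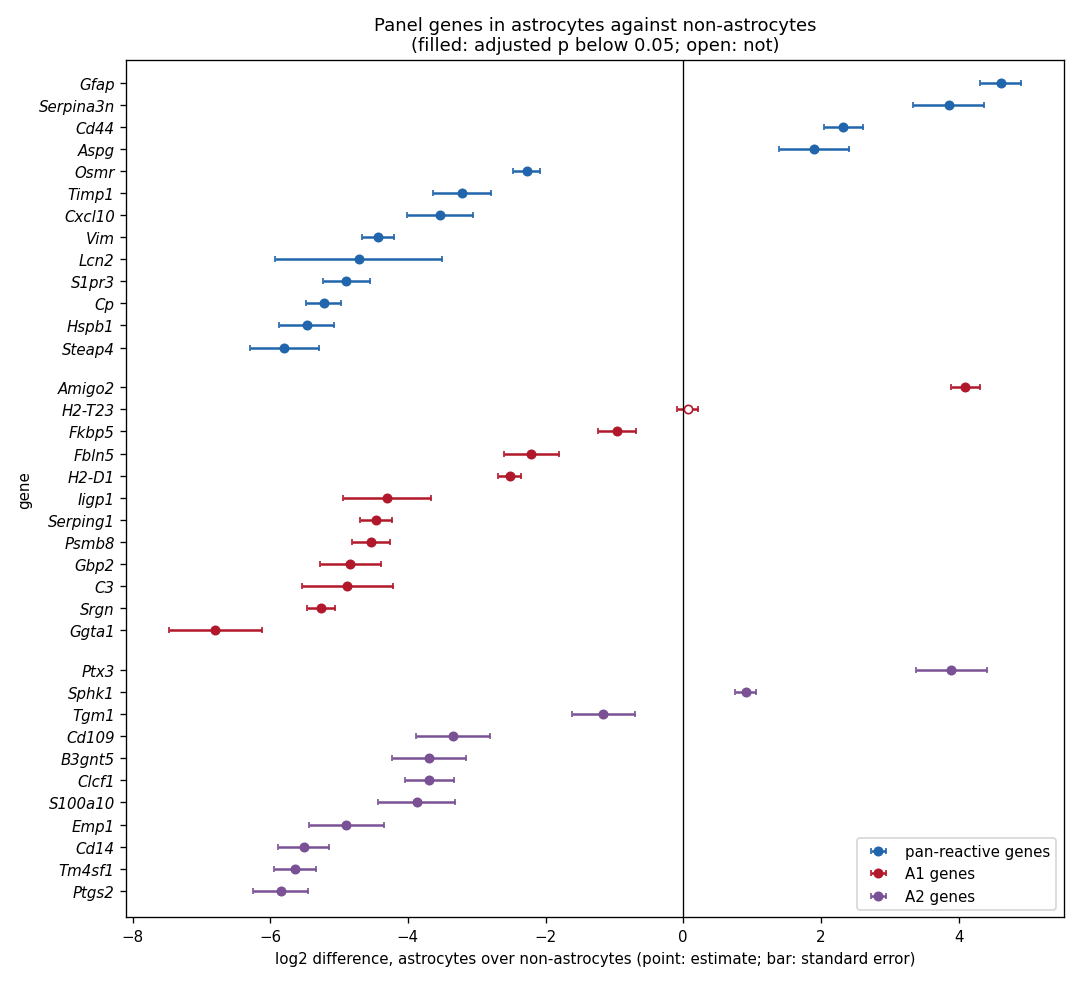
Log2 difference of astrocytes over non-astrocytes for the 36 tested members, by division of the panel (points are limma estimates, bars are standard errors; filled points are called, the open point is not). The values run from 4.61 for Gfap to -6.80 for Ggta1, and the 7 called members on the astrocyte side lie above H2-T23, the open point near 0.

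The pan-reactive genes that rose in astrocytes span a filament, a secreted protein, a surface receptor and an enzyme. Gfap (chromosome 11, 102887336 to 102900912, GENCODE M21 on GRCm38, as for the positions that follow), the intermediate filament protein that defines reactive astrocytes in histology, had 1174, 546 and 1402 normalised read counts in upper layer astrocytes and 1380, 729 and 2103 in deep layer astrocytes. It had 39.2 and 40.4 in upper layer and 42.9 and 58.2 in deep layer non-astrocytes, and 421 and 255 in upper layer and 457 and 354 in deep layer bulk tissue. Every astrocyte library was above every other library, and astrocytes were 24.4-fold above non-astrocytes (log2 4.61, SE 0.30, limma adjusted p = 2.79e-09). Gfap was 3.06-fold above bulk tissue in astrocytes, and it was 1 of 2 members called lower in non-astrocytes than in bulk tissue (log2 -3.00).

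Serpina3n (chromosome 12, 104406729 to 104414329), a secreted inhibitor of serine proteases, had 1917, 973 and 2039 in upper layer astrocytes and 1818, 1197 and 1634 in deep layer astrocytes. Its values were 84.5 and 120 in upper layer and 89.8 and 137 in deep layer non-astrocytes. The fractions did not overlap, and the difference was 14.5-fold (log2 3.85, SE 0.52, limma adjusted p = 1.58e-05). Serpina3n belongs to a cluster of close paralogs, so how reads were shared among them is uncertain. Bulk tissue split by library number, with 639 and 565 in the libraries numbered 2 and 106 and 85.8 in those numbered 1. Cd44 (chromosome 2, 102811141 to 102901665), the cell surface receptor for hyaluronan, had 917, 1266 and 1471 in upper layer and 660, 1318 and 872 in deep layer astrocytes. Non-astrocytes had 150 and 311 in upper layers and 127 and 314 in deep layers, so the fractions were apart by 5.01-fold (log2 2.33, SE 0.28, adjusted p = 3.29e-06). Aspg (chromosome 12, 112106679 to 112127559), an asparaginase, had 144, 121 and 89.3 in upper layer and 143, 19.9 and 56.0 in deep layer astrocytes. Its non-astrocyte values were 18.4 and 34.1 in upper layers and 16.2 and 17.3 in deep layers, and deep layer astrocyte replicate 2 lay among them. The difference was 3.74-fold (log2 1.90, SE 0.51, adjusted p = 0.00385), and it was not called with both non-astrocyte libraries numbered 1 left out (log2 1.67, adjusted p = 0.0568).

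Of the A1 genes, Amigo2 rose in astrocytes. It lies on chromosome 15, 97244125 to 97247287, and encodes a leucine-rich repeat and immunoglobulin domain adhesion protein. Upper layer astrocytes had 2208, 3209 and 1886 and deep layer astrocytes 1338, 1901 and 1129. Non-astrocytes had 131 and 111 in upper layers and 136 and 64.6 in deep layers, and bulk tissue 261 and 232 in upper layers and 174 and 164 in deep layers. All astrocyte libraries were above all others, 17.1-fold above non-astrocytes (log2 4.10, SE 0.21, limma adjusted p = 1.71e-10). Exons of Amigo2 overlap those of Pced1b, and the use of strand in counting is not given in the sources used here.

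Of the A2 genes, Ptx3 and Sphk1 rose. Ptx3 (chromosome 3, 66219910 to 66225805), a secreted pattern recognition protein of the pentraxin family, had 93.6, 107 and 105 in upper layer and 106, 166 and 131 in deep layer astrocytes. The non-astrocyte values were 15.4 and 9.87 in upper layers and 0.809 and 10.9 in deep layers, and bulk tissue ranged from 2.00 to 16.4. Ptx3 was thus low everywhere except in astrocytes, with a difference of 14.9-fold (log2 3.89, SE 0.51, limma adjusted p = 7.23e-06). Sphk1 (chromosome 11, 116530925 to 116536674), the kinase that makes sphingosine phosphate, had 259, 295 and 230 in upper layer and 297, 321 and 305 in deep layer astrocytes. Non-astrocytes had 172 and 140 in upper layers and 168 and 125 in deep layers, and bulk tissue ranged from 127 to 172. The rise was the smallest of the 7, at 1.88-fold (log2 0.91, SE 0.15, adjusted p = 8.71e-05), and exons of Sphk1 overlap those of Gm29292.

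Per kilobase of exon, a few members made up most of the panel's signal in healthy astrocytes. Levels between genes are compared here as normalised read counts per kilobase. Serpina3n was highest in astrocytes at 773 ± 205 per kilobase (SD, n = 6), with Amigo2 at 615 ± 233. The ranges of this pair over libraries overlapped, so their order is not firm. Gfap followed at 290 ± 131, Cd44 at 160.0 ± 46.2, H2-D1 at 157.7 ± 31.2 and H2-T23 at 129.6 ± 23.7. The SD ranges of neighbours in this order overlapped too, so it is not firm either. These first 6 genes held 85.3% of the panel's summed level per kilobase in astrocytes, 31.0% being Serpina3n alone. In non-astrocytes the first 6 were Vim, H2-D1, Srgn, S1pr3, Hspb1 and Cd14, with 62.9% of the sum, and in bulk tissue they were H2-D1, Serpina3n, H2-T23, Vim, Gfap and Amigo2, with 56.1%. In astrocytes 6 of the 37 members lay below 1 per kilobase, none did in non-astrocytes, and 5 did in bulk tissue. Above 100 per kilobase there were 6 members in astrocytes, 13 in non-astrocytes and 2 in bulk tissue. The summed level of the panel was 2491 per kilobase in astrocytes, 5967 in non-astrocytes and 1269 in bulk tissue.

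**Figure D3:**
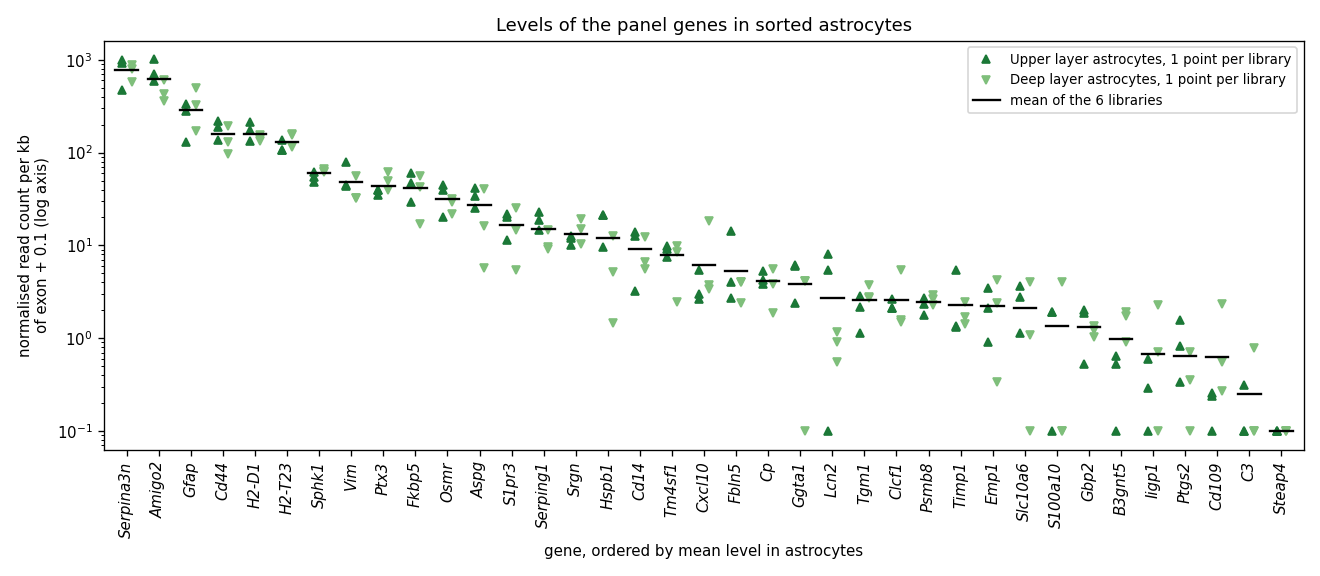
Normalised read counts per kilobase of exon (log axis, 0.1 added) of the 37 panel genes in the 6 astrocyte libraries, ordered by their mean (triangles are libraries, upward for upper and downward for deep layers; bars are means). Serpina3n, Amigo2, Gfap, Cd44, H2-D1 and H2-T23 stand above 100 per kilobase, and Steap4 is at 0.

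Among cytoskeletal and stress proteins, the members other than Gfap were lower in astrocytes. Vim, the intermediate filament protein that assembles with Gfap in reactive astrocytes, had 214, 205 and 378 in upper layer and 153, 152 and 265 in deep layer astrocytes. It had 3499 and 6245 in upper layer and 3649 and 6040 in deep layer non-astrocytes, the highest level per kilobase of any member there. Vim was 21.6-fold lower in astrocytes than in non-astrocytes (log2 -4.43, SE 0.23, limma adjusted p = 2e-10) and lower than in bulk tissue too (log2 -0.96). Hspb1, a small heat shock protein that binds filaments, had 22.0, 9.81 and 22.0 in upper layer and 12.98, 1.42 and 5.29 in deep layer astrocytes, against 408 and 603 in upper layer and 392 and 448 in deep layer non-astrocytes (log2 -5.47). S100a10, an annexin partner, reached 4.72 at most in astrocytes and was at 0 in 3 of their 6 libraries, against 16.9 to 61.9 in non-astrocytes and 32.1 to 69.3 in bulk tissue.

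Lcn2, Steap4, Cp, Timp1, Fbln5 and Srgn were lower in astrocytes than in non-astrocytes. Lcn2, a siderophore-binding protein often used as the lead marker of reactive astrocytes, had 0, 14.2 and 20.9 in upper layer and 1.18, 2.84 and 2.11 in deep layer astrocytes. Non-astrocytes had 686 and 517 in the upper and deep libraries numbered 2, against 17.7 and 29.1 in those numbered 1. The difference of log2 -4.71 (SE 1.21, limma adjusted p = 0.00357) thus depended on that pair of libraries, and without them it was -2.39 (adjusted p = 0.123). Steap4, a metalloreductase, had no read in any of the 6 astrocyte libraries. Non-astrocytes had 29.9 and 80.8 in upper layers and 33.2 and 108 in deep layers, and the astrocyte level was at least 111-fold lower, taking 3 reads over the 6 libraries as the most that a count of 0 allows. Against bulk tissue, which had 0 to 4.62, it was at least 4.81-fold lower. Both bounds are taken from the mean of the other fraction, whose spread they do not include.

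Cp, the copper protein ceruloplasmin, had 17.0 to 52.9 in astrocytes with a median of 37.6, against 1285 and 1386 in upper layer and 1618 and 1290 in deep layer non-astrocytes (log2 -5.22, SE 0.25). Its exons overlap those of Hps3. Timp1, an inhibitor of matrix metalloproteases, had 1.09 to 4.77 in astrocytes, against 8.09 to 43.1 in non-astrocytes and 32.1 to 47.1 in bulk tissue. Timp1, Fbln5, S100a10 and Ptgs2 were lower in astrocytes than in both other fractions, while their difference of non-astrocytes against bulk tissue was not called with limma. For Ptgs2 that difference was log2 -0.62 (limma adjusted p = 0.230), and it was called lower in non-astrocytes with edgeR (log2 -0.64, adjusted p = 0.0368), with DESeq2 (log2 -0.62, adjusted p = 0.0137) and with a pseudocount of 5 (log2 -0.61, limma adjusted p = 0.0479). Fbln5, an elastic fibre protein, had 15.9 to 99.2 in astrocytes, and 104 to 240 in non-astrocytes. Srgn, the proteoglycan serglycin of secretory granules, had 22.0 to 42.6 in astrocytes, against 941 to 1309 in non-astrocytes.

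The pan-reactive receptors S1pr3 and Osmr and the chemokine Cxcl10 were lower in astrocytes than in non-astrocytes, by unequal amounts. S1pr3, a receptor for sphingosine phosphate, the product of Sphk1, had 24.1 to 113 in astrocytes, against 1511 to 2615 in non-astrocytes and 181 to 302 in bulk tissue (log2 -4.89 against non-astrocytes). The kinase and the receptor thus differed in opposite directions between the sorted fractions. Sphk1 was present in non-astrocytes too, near its bulk tissue level (log2 0.0045, limma adjusted p = 0.983). Exons of S1pr3 overlap those of Gm32834, and exons of Cxcl10 those of Art3. Osmr, the oncostatin M receptor subunit that pairs with gp130, had 542, 244 and 480 in upper layer and 359, 264 and 384 in deep layer astrocytes. Non-astrocytes had 1766, 1765, 1685 and 1836, and bulk tissue 139, 129, 167 and 187, so the 3 fractions were separate from one another. Osmr was lower in astrocytes than in non-astrocytes (log2 -2.27, SE 0.20, limma adjusted p = 5.85e-08) and higher than in bulk tissue (log2 1.24, adjusted p = 4.73e-05). Cxcl10, a chemokine induced by interferon, was the other tested member called above bulk tissue in both sorted fractions. It had 5.73, 6.54 and 12.1 in upper layer and 8.26, 41.1 and 7.40 in deep layer astrocytes, against 64.6 to 191 in non-astrocytes and 0 to 3.00 in bulk tissue. Cxcl10 was higher in astrocytes than in bulk tissue by log2 2.35 (SE 0.48, adjusted p = 0.000474) and in non-astrocytes than in bulk tissue by log2 5.89.

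The A1 genes of complement and antigen presentation were lower in astrocytes apart from H2-T23. C3, the central complement protein and the usual A1 marker, was at 0 in 4 astrocyte libraries and at 1.10 and 3.54 in the others. Non-astrocytes had 81.7 and 117 in the libraries numbered 2 and 23.8 and 12.9 in those numbered 1, and bulk tissue 4.70 to 18.4. The difference between astrocytes and non-astrocytes was log2 -4.88 (SE 0.66, limma adjusted p = 9.63e-06). Serping1, the inhibitor of the first complement component, had 21.2 to 52.5 in astrocytes, against 697 to 824 in non-astrocytes. Its difference from bulk tissue was small (log2 -0.60, adjusted p = 0.0358) and was not called on scaling to library totals (adjusted p = 0.146) or without any 1 of 6 libraries, which were upper layer astrocyte replicates 2 and 3, deep layer astrocyte replicates 1 and 3, upper layer bulk tissue replicate 1 and deep layer bulk tissue replicate 2. Its value without them lay between log2 -0.60 (adjusted p = 0.0526) and -0.38 (adjusted p = 0.203).

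H2-D1, a classical class I antigen presentation gene, had 342, 549 and 450 in upper layer and 358, 348 and 394 in deep layer astrocytes. Non-astrocytes had 1970 and 2954 in upper layers and 1878 and 2598 in deep layers, 5.75-fold more (log2 -2.52, SE 0.16, limma adjusted p = 1.82e-09). H2-T23, the non-classical class I gene that encodes Qa-1, had 304 to 458 in astrocytes with a median of 363, against 285 to 400 in non-astrocytes and 256 to 294 in bulk tissue. It was the member closest to equal between the sorted fractions (log2 0.06, SE 0.15, adjusted p = 0.716), an estimate that turned to -0.12 on scaling to library totals. Class I genes are polymorphic and close paralogs, so how reads of SW animals were shared among them on the reference genome is uncertain.

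The A1 genes Gbp2, Iigp1 and Psmb8, which interferons induce, were lower in astrocytes than in non-astrocytes. Gbp2, a guanylate-binding GTPase, had 1.09 to 4.77 in astrocytes, against 126 and 143 in upper layer and 87.4 and 93.7 in deep layer non-astrocytes (log2 -4.83, SE 0.44, limma adjusted p = 1.03e-07). Iigp1, an immunity-related GTPase, had 0 to 12.8 in astrocytes and 41.3 to 72.0 in non-astrocytes. Psmb8, a catalytic subunit of the immunoproteasome, had 5.73 to 9.44 in astrocytes and 178 to 229 in non-astrocytes, a narrow range in each. Its exons overlap those of Gm20496, and those of Gbp2 overlap Mir6381. Ggta1, a galactosyltransferase, had the largest fitted difference of the panel (log2 -6.80, SE 0.68), with 0 to 28.6 in astrocytes, against 1292 to 1480 in non-astrocytes. At the other end of the falls, Fkbp5, a co-chaperone of steroid receptors that glucocorticoids induce, had 445, 572 and 274 in upper layer and 402, 523 and 160 in deep layer astrocytes, against 650 to 796 in non-astrocytes (log2 -0.97, SE 0.28, adjusted p = 0.00656). Without both non-astrocyte libraries numbered 2 that call was lost (log2 -0.87, adjusted p = 0.0782).

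Among the remaining A2 genes, Ptgs2, the inducible cyclooxygenase, had 0 to 6.68 in astrocytes, against 95.5 to 243 in non-astrocytes and 149 to 480 in bulk tissue. Astrocytes were lower than non-astrocytes by log2 -5.85 (SE 0.39, limma adjusted p = 3.46e-09) and lower than bulk tissue by log2 -6.47, the largest difference from bulk tissue in the panel. Cd14, the lipopolysaccharide co-receptor, had 5.45 to 24.2 in astrocytes and 515 to 906 in non-astrocytes (log2 -5.51). Tm4sf1, a membrane protein related to the tetraspanins, had 9.93 to 40.3 in astrocytes and 1177 to 1890 in non-astrocytes (log2 -5.64). Emp1, an epithelial membrane protein, had 1.42 to 24.8 in astrocytes and 252 to 525 in non-astrocytes (log2 -4.90). These 4 genes were 29.8-fold to 57.7-fold lower in astrocytes.

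Clcf1, a cytokine that signals through the Cntfr receptor, had 5.29 to 20.1 in astrocytes and 75.5 to 175 in non-astrocytes (log2 -3.69), and its exons overlap those of AC109138.7. B3gnt5, a glycosyltransferase of glycolipid synthesis, had 0 to 9.44 in astrocytes and 34.5 to 90.03 in non-astrocytes (log2 -3.69). Cd109, a membrane-anchored protein that binds transforming growth factor beta, had 0 to 15.6 in astrocytes and 21.0 to 36.9 in non-astrocytes (log2 -3.34). Bulk tissue reached 28.0 for Clcf1, 24.0 for B3gnt5 and 8.31 for Cd109, and Clcf1 was called lower in astrocytes than in bulk tissue (log2 -1.22, limma adjusted p = 0.00741). Tgm1, a transglutaminase, had 3.31 to 11.6 in astrocytes and 12.6 to 36.9 in non-astrocytes. Its call (log2 -1.16, SE 0.46, limma adjusted p = 0.0352) was lost without any 1 of 5 libraries, and its exons overlap those of Gm49067. Its value was -1.0 without upper layer astrocyte replicate 3 (adjusted p = 0.0777), -1.12 without deep layer astrocyte replicate 1 (0.058), -0.79 without upper layer non-astrocyte replicate 1 (0.174), and -1.16 without deep layer non-astrocyte replicate 1 (0.0757) or 2 (0.0801). Slc10a6, a transporter of steroid sulfates, had 0 to 8.26 in astrocytes and 3.24 to 17.95 in non-astrocytes, and no read in any bulk tissue library. Taking 3 reads over the 4 bulk tissue libraries as the floor, it was at least 5.73-fold higher in astrocytes and at least 10.01-fold higher in non-astrocytes than in bulk tissue. Both bounds are taken from the mean of the sorted fraction, whose spread they do not include.

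Set against bulk tissue, the panel split more evenly in astrocytes. In astrocytes against bulk tissue (n = 6 and 4), 10 members were called higher (28.8% of all genes), 18 lower (36.1% of all genes) and 8 neither way, where 64.8% of all genes were called. The higher members were the 7 above with Cxcl10, Osmr and H2-T23, whose value was small (log2 0.40, SE 0.15, limma adjusted p = 0.0295) and was not called without any 1 of 5 libraries. Its value was 0.34 without upper layer astrocyte replicate 1 (adjusted p = 0.0735), 0.36 without deep layer astrocyte replicate 1 (0.0657), 0.36 without upper layer bulk tissue replicate 1 (0.0961), and 0.41 and 0.39 without deep layer bulk tissue replicates 1 (0.0635) and 2 (0.0804). Of the lower members, the call of Steap4 was lost without upper layer bulk tissue replicate 1 (log2 -1.17, adjusted p = 0.0698) and with a pseudocount of 5 (log2 -0.59, adjusted p = 0.115), that of Emp1 without deep layer bulk tissue replicate 2 (log2 -1.52, adjusted p = 0.0548), and that of Cd14 without upper layer bulk tissue replicate 2 (log2 -1.02, adjusted p = 0.062) or deep layer bulk tissue replicate 1 (log2 -0.89, adjusted p = 0.0932), and on scaling to library totals (log2 -0.90, adjusted p = 0.0581). The 7 members higher in astrocytes than in both fractions stood between 1.88-fold (Sphk1) and 18.9-fold (Ptx3) above bulk tissue. The median was log2 -0.79 over the members and -0.10 over all genes. In non-astrocytes against bulk tissue (n = 4 each), 24 members were higher (30.5% of all genes), Gfap and Amigo2 were lower (31.1% of all genes) and 10 were called neither way, where 61.6% of all genes were called, with a median of log2 2.76 over the members and -0.04 over all genes. The call of C3 (log2 2.05, limma adjusted p = 0.0232) was lost without upper layer (1.61, adjusted p = 0.107) or deep layer (1.28, adjusted p = 0.146) non-astrocyte replicate 2, and without upper layer bulk tissue replicate 2 (1.73, adjusted p = 0.09) or deep layer bulk tissue replicate 1 (1.75, adjusted p = 0.0862). That of Tgm1 (log2 1.23, adjusted p = 0.0437) was lost without any 1 of 6 libraries, with values of 0.85 to 1.23. With all libraries it was also lost with a pseudocount of 0.5 (1.30, adjusted p = 0.0509), without the filter on low values (1.23, adjusted p = 0.0544), with edgeR (1.22, adjusted p = 0.0576) and with DESeq2 (1.24, adjusted p = 0.0786). These comparisons share their bulk tissue libraries. Read together, 7 members were higher in astrocytes than in both other fractions, 24 were higher in non-astrocytes than in both others, and 14 of these 24 were lower in astrocytes than in bulk tissue as well. Joint patterns of this kind were not counted over all genes, so these numbers describe the members alone. Scaling to library totals moved the all-gene median of non-astrocytes against bulk tissue to log2 0.32, with 9019 genes higher and 5054 lower, where 6885 and 7030 were called before, and gave 28 members higher and 1 lower, Amigo2 no longer being called (log2 -0.56, limma adjusted p = 0.0568). Relative to that shift, members moved by log2 2.79 at the median, where 2.80 was found with the deposited scaling.

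What was left of the 28 lower members in astrocytes was set beside markers of other cell types. Summed over their markers, astrocytes held 1.14% of the non-astrocyte level for microglia, 2.39% for endothelial cells, 2.61% for mural cells, 4.03% for meningeal fibroblasts, 5.19% for oligodendrocytes, 7.61% for oligodendrocyte precursors and 11.3% for neurons. Of the 28 members, 14 were at or below the 4.03% of the fibroblast markers, 17 at or below the 5.19% of the oligodendrocyte markers, 20 at or below 7.61% and 22 at or below 11.3%. The 11.3% of the neuron markers is over a low base, since non-astrocytes held 4.68% of the bulk tissue level and astrocytes 0.529%. In all, 12 of the 28 members lay between 4.03% and 25%. Those in the first class ran from 0% for Steap4, through 1.25% for Ggta1 and 1.31% for C3, to 3.87% for Psmb8. Serping1 at 4.63% and Vim at 4.69% were just above them. Tgm1 at 39.8% and Fkbp5 at 55.4% lay above 25%. Among the members between, H2-D1 kept 17.3%, Osmr 21.5% and Fbln5 24.5%. The part that carried-over RNA or cells of these types have in the low astrocyte values was not tested. How many of all 8301 genes called lower in astrocytes lie at or below the same shares was not counted. The lists are not separate, as Pdgfra is in the fibroblast and precursor lists and Cspg4 in the mural and precursor lists. The summed microglia markers ranged from 1628 to 3898 normalised read counts in the astrocyte libraries, from 187845 to 264648 in the non-astrocyte libraries and from 8886 to 10011 in bulk tissue.

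Genes of the pathways that induce the panel were compared in the same way, and their counts stand beside the shares of all genes. Those were 29.6% higher and 36.8% lower in astrocytes than in non-astrocytes, 28.8% and 36.1% in astrocytes against bulk tissue, and 30.5% and 31.1% in non-astrocytes against bulk tissue. Of 14 tested genes of gp130 and STAT3 signalling, 4 were higher and 8 lower in astrocytes than in non-astrocytes. Cntfr, the receptor subunit for ciliary neurotrophic factor, averaged 5678 ± 1619 in astrocytes and 191.4 ± 31.3 in non-astrocytes (log2 4.85), and Lifr, the receptor for leukaemia inhibitory factor, 6983 ± 638 and 1787 ± 155 (log2 1.97). On the other side stood Il6ra, the interleukin receptor subunit (log2 -6.17), and Socs3, the feedback inhibitor of this pathway (log2 -5.97). Against bulk tissue 8 genes of the list were higher and 2 lower in astrocytes, and 9 higher and 1 lower in non-astrocytes. Astrocytes thus carried the receptor subunits Cntfr and Lifr at high level, while Osmr and Il6ra were higher in non-astrocytes.

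All 15 tested neuroinflammatory inducers and receptors were lower in astrocytes than in non-astrocytes. C1qa, a subunit of complement C1q, averaged 14.94 ± 9.97 in astrocytes and 1659 ± 257 in non-astrocytes (log2 -7.07), and its partner C1qb showed log2 -6.85. Of 20 interferon and antigen presentation genes, none was higher and 12 were lower, among them the transcription factor Irf1 (log2 -3.50) and B2m (log2 -3.26), the light chain of class I molecules. Of 12 complement genes, 3 were higher and 8 lower. C2 (308.5 ± 59.9 in astrocytes and 35.26 ± 7.998 in non-astrocytes, log2 3.10) and C4b (log2 1.85), which act upstream of C3 in the classical pathway, were higher in astrocytes, where C3 itself was near 0. C4b has a near-identical copy in mouse, so how its reads were shared is uncertain. Itgam, an integrin subunit of complement receptors, was lower (log2 -6.65). Of 14 scar and cytoskeleton genes, 3 were higher and 11 lower, with the matrix genes Ncan (log2 3.996) and Tnc (log2 3.49) higher and Tgfb1 (log2 -6.29) and Fn1 (log2 -6.26) lower. Set against bulk tissue, these lists split otherwise. Astrocytes then had 6 neuroinflammatory genes higher and 6 lower, and 10 interferon and antigen presentation genes higher and 3 lower. For complement it was 4 higher and 5 lower, and for scar and cytoskeleton 5 higher and 8 lower. Non-astrocytes had 14 higher and 0 lower, 13 and 1, 6 and 1, and 9 and 2, in the same order.

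Dissociation can itself induce early response genes, so these were measured beside the panel. All 18 tested immediate early and stress genes were lower in astrocytes than in non-astrocytes. Atf3 averaged 21.2 ± 16.7 in astrocytes, 1450 ± 342 in non-astrocytes and 8.51 ± 4.95 in bulk tissue, and Junb 44.1 ± 14.5, 2716 ± 984 and 236.7 ± 62.1. Against bulk tissue 2 of the 18 were higher and 8 lower in astrocytes (28.8% and 36.1% of all genes), and 13 were higher and 1 lower in non-astrocytes (30.5% and 31.1% of all genes). Over all genes, 36.8% were lower in astrocytes than in non-astrocytes. The fraction with the high panel genes was thus also the fraction with the high early response genes, and the part of that response in the panel values was not tested.

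The libraries numbered 2 lay apart from the others for some members, as they did for the share of all genes given beside each count. In non-astrocytes both libraries numbered 2 were above both numbered 1 for 16 members, Lcn2, Steap4 and C3 among them (34.5% of all genes), and below for 6 (23.3% of all genes). Large shares of all genes split in the same way. In astrocytes the libraries numbered 2 were above the other 4 for Fkbp5 (7.76% of all genes) and below for S1pr3, Osmr, Serpina3n, Gfap and Ggta1 (8.76% of all genes). Gfap in astrocytes was 546 and 729 in the libraries numbered 2, against 1174 to 2103 in the other 4. In bulk tissue they were above for Cp, Serpina3n, Aspg and Fbln5 (16.5% of all genes) and below for 8 members (13.7% of all genes). What the number stands for, a day, a litter or a pool, is not given in the labels. With both non-astrocyte libraries numbered 2 left out, 7 members were higher and 26 lower in astrocytes than in non-astrocytes, Lcn2 and Fkbp5 no longer being called. Against bulk tissue Lcn2 was then not called in non-astrocytes either (log2 3.00, limma adjusted p = 0.0735, where all libraries gave 5.33).

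No member was called between the layers. Of 36 members, 0 were called in astrocytes (0.0797% of all genes), 0 in non-astrocytes (0.00443%) and 0 in bulk tissue (0.456%), and 0 in the test of whether the layer difference of astrocytes differed from that of non-astrocytes (0.00443%). At an unadjusted p below 0.05 there were 5 members in astrocytes, 0 in non-astrocytes, 3 in bulk tissue and 0 for the difference. Over all 22575 genes tested, the numbers in the same order were 2334, 871, 1639 and 1350. With edgeR 0 members were called in each, and with DESeq2 0 in the sorted fractions and 1, Ptgs2, in bulk tissue. Over all 22575 genes, edgeR called 17 in astrocytes, 7 in non-astrocytes, 167 in bulk tissue and 1 for the difference. DESeq2 called 142, 138, 428 and 61. The smallest adjusted p in astrocytes was that of Hspb1 (log2 1.58, SE 0.51, limma adjusted p = 0.353). Upper and deep layer libraries did not overlap in astrocytes for Serping1, which was higher in upper layers (8.7% of all genes), or for Sphk1, Cd109 and B3gnt5, which were lower (7.31% of all genes). Without such overlap, 6 members were higher in upper layers (11.8% of all genes) and 3 lower (13.7%) in non-astrocytes, and 7 were higher (22.4%) and 8 lower (21.3%) in bulk tissue.

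In same-numbered pairs of astrocyte libraries, the upper layer value was the higher in all 3 pairs for 7 members (19.9% of all genes) and the lower in all 3 for 7 (18% of all genes). The first 7 were Hspb1, Amigo2, Vim, Ggta1, Serping1, Fkbp5 and Aspg, and the others were Gfap, Cd109, B3gnt5, H2-T23, Srgn, Sphk1 and Ptx3. Amigo2 and Gfap are given in full, and both were chosen after their values were seen. In astrocytes Amigo2 was higher in the upper layer library by 1.65, 1.69 and 1.67 times, although the libraries of the layers overlapped (log2 0.74, SE 0.27, limma adjusted p = 0.401). The same-numbered astrocyte libraries varied together, so a fit with the pairs as a block was made. In that fit 188 genes were called between astrocyte layers, against 18 without the block, and no panel member was among them. The smallest adjusted p there was that of Hspb1 (log2 1.58, limma adjusted p = 0.0588), ahead of Amigo2 (0.0663), Vim (log2 0.47, adjusted p = 0.0844), Ggta1 (log2 1.55, adjusted p = 0.146) and Gfap (0.175). For the other members on one side in every pair it ran from 0.178 for Cd109 to 0.741 for Ptx3. In bulk tissue Amigo2 was 261 and 232 in upper layers, against 174 and 164 in deep layers (log2 0.54, adjusted p = 0.916). Gfap had 1174, 546 and 1402 in upper layer astrocytes against 1380, 729 and 2103 in deep layer astrocytes, lower in each pair, with log2 -0.41 (SE 0.38, limma adjusted p = 0.690).

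Ptgs2 had 352 and 480 in upper layer bulk tissue, against 149 and 166 in deep layer bulk tissue, and 243 and 242 in upper layer non-astrocytes, against 133 and 95.5 in deep layer non-astrocytes. Neither pair of groups overlapped. Over all genes, 22.4% were higher in upper layers without overlap in bulk tissue and 11.8% in non-astrocytes. In non-astrocytes Ptgs2 was not called (log2 1.10 with same-numbered libraries as a block, limma adjusted p = 0.833). With limma the bulk tissue difference was log2 1.38 (SE 0.61, adjusted p = 0.646), and with DESeq2 on the reads it was 1.397 (adjusted p = 0.00245). Ptgs2 was thus among 428 genes that DESeq2 called between the layers of bulk tissue, where limma called 103. In astrocytes Ptgs2 stayed between 0 and 6.68 in both layers.

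**Figure D4:**
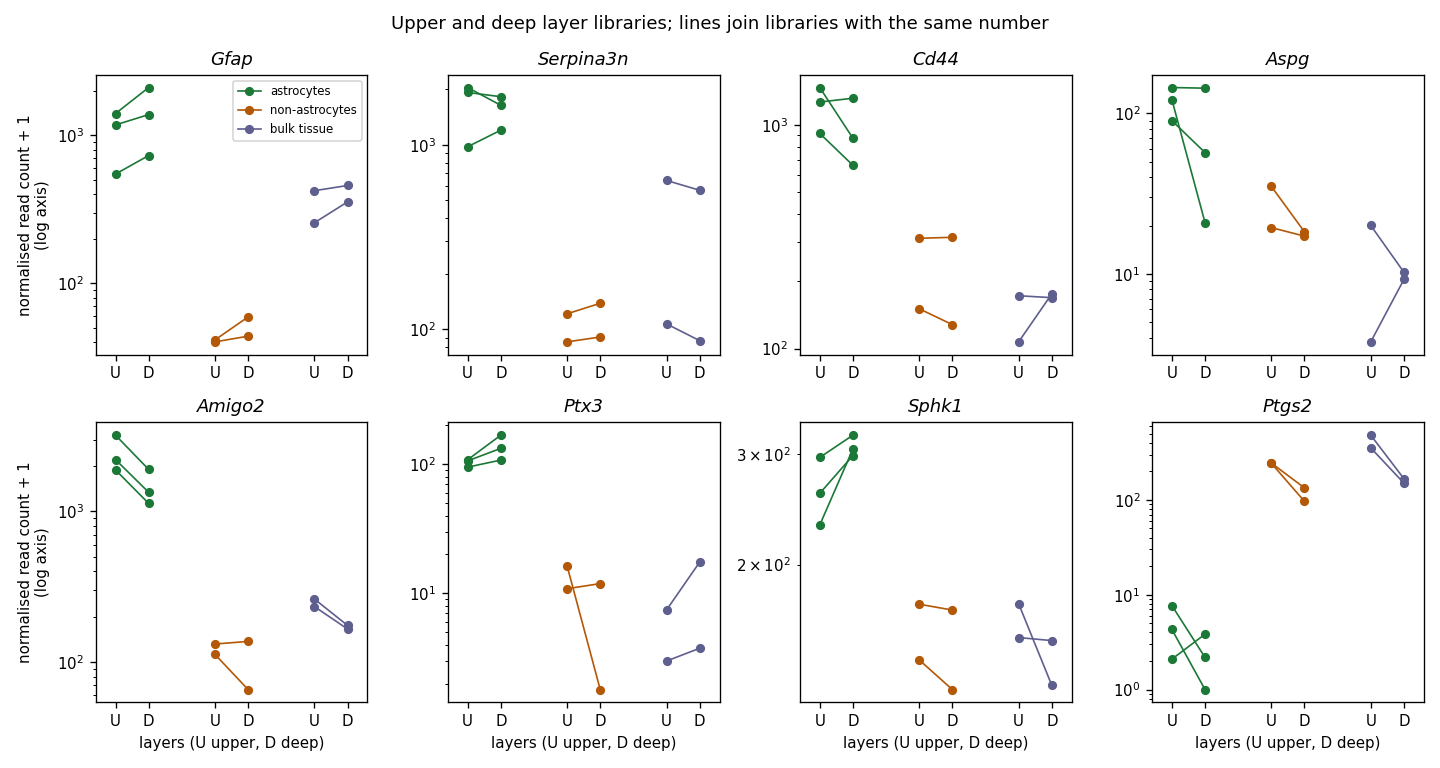
Normalised read counts (log axis, 1 added) of 8 panel genes in upper (U, left) and deep (D, right) layers of astrocytes, non-astrocytes and bulk tissue, with lines joining libraries of the same number. Amigo2 is higher in the upper layer of each astrocyte pair and Gfap is lower, while neither difference was called. Ptgs2 is higher in upper layers of non-astrocytes and bulk tissue. That difference was not called with limma in either, and DESeq2 called it in bulk tissue alone.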

How the data were processed

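RNA-seq was analysed in 14 libraries from 6 groups, named from the sample titles. Per the labels' protocols, papain-dissociated living cells were sorted by GFP, RNA was amplified with the NuGEN RNA-Seq V2 kit and sequenced as single reads of 50 bases. The tools named in the submitters' processing notes are CASAVA, TopHat2 2.0.11, HTSeq 0.6.1p1 and DESeq2, on the GRCm38 build. Use of strand in counting is not given in the sources used here. The deposited values are a signal, gene counts divided by a size factor for each library, and 100% of them came out whole on division by the value of a single read, within 1e-06. Reads recovered in this way came to 18226457 to 30316765 per library, and the precision of low members is limited by single reads.

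The 37 members were taken by symbol, and all symbols equalled the GENCODE M21 name of their identifier. Exon lengths, positions and overlaps between genes come from that annotation. The members and gene lists were chosen with earlier results of these data known. Every member is named, and other genes were named from the lists by the 2 largest called changes per direction in astrocytes against non-astrocytes, with a mean log2 level of at least 5. One gene that this rule would name is not reported here.

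One model of 6 group means was fitted with limma 3.58.1 in R 4.3.3 (trend and robust moderation) on log2(value + 1), over genes with a value of 10 in at least 2 libraries. Fold changes on this scale understate the change of low genes. Fraction comparisons weigh both layers equally, and p-values were adjusted by Benjamini-Hochberg over all genes tested. Where nothing says that libraries came from separate animals, the p-values cover spread between libraries alone, and that spread may be technical. The procedure was also run on simulated counts in which few genes changed, in a single fraction. Most genes were called between fractions in the real data, so that run does not show how the procedure behaves here. The count tests of edgeR 4.0.16 and DESeq2 1.42.0 were alternatives, run on recovered reads, and edgeR called 15102 genes in astrocytes against non-astrocytes, 14632 in astrocytes against bulk tissue and 13976 in non-astrocytes against bulk tissue, against 14978, 14637 and 13915 with limma. Other alternatives were pseudocounts of 0.5 and 5, no filter, scaling by TMM factors or library totals, a block of replicate number and leaving out each library. Leaving out both libraries of 1 number in a sorted fraction was chosen after seeing the data.

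The replicate numbers were checked by the correlation of deviations from group means. Between upper and deep layer astrocyte libraries of the same number it was 0.203, 0.149 and 0.171, all over 0.1, so these numbers were taken to pair the layers. It was 0.436 in non-astrocytes and 0.0937 in bulk tissue, each with 2 pairs, and -0.0099 to 0.172 between fractions. Astrocytes with non-astrocytes numbered 1 were over 0.1 too (0.172 and 0.121), while those numbered 2 were not (-0.0095 and 0.0201). Fractions were not treated as paired, apart from the alternative with a block of replicate number across all groups.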

Additional observations from a re-analysis of the deposited data

Results flagged for a closer look

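Within fractions of 4 or 6 libraries, each member was examined for a single library far from the others. Of 108 combinations of member and fraction, 8 were flagged, where chance alone flags about 1 in 20, or 5.4. In astrocytes, 4 flags fell on deep layer replicate 2. There Cxcl10 stood at 41.1, with the other astrocyte libraries at 5.73 to 12.1. Cp was at 17.0 in that library, with the others at 35.4 to 52.9, Ggta1 was at 0, with the others at 10.9 to 28.6, and Tm4sf1 was at 9.93, with the others at 30.6 to 40.3. Fbln5 stood at 99.2 in upper layer astrocyte replicate 2, with the others at 15.9 to 27.5. In non-astrocytes, Tgm1 was at 36.9 in upper layer replicate 1, with the others at 12.6 to 14.6. In bulk tissue, Cd44 was at 106 in upper layer replicate 2, with the others at 168 to 175, and Emp1 was at 23.5 in deep layer replicate 1, with the others at 36.1 to 37.9.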

How the results depend on the processing

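Of the members called, 31 of 35 kept their call in every one of 25 alternatives for astrocytes against non-astrocytes, 23 of 28 for astrocytes against bulk tissue and 22 of 26 for non-astrocytes against bulk tissue. The calls lost in some were those of Lcn2, Aspg, Fkbp5 and Tgm1 in the first comparison, of Steap4, H2-T23, Serping1, Emp1 and Cd14 in the second, and of Lcn2, C3, Amigo2 and Tgm1 in the third. Leaving out 1 library gave 7 members higher and 27 to 28 lower in the first, 9 to 11 higher and 16 to 19 lower in the second, and 23 to 25 higher and 2 to 3 lower in the third. Members lower in non-astrocytes than in bulk tissue numbered 1 on scaling to library totals and 4 with edgeR and with DESeq2. Where a layer group was left with 1 library, that library was assumed to vary like the others. The cause of these changes was not tested.

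Uncalled members near 0 turned sign. For astrocytes over non-astrocytes, H2-T23 was -0.12 with library totals, -0.10 without the non-astrocyte libraries numbered 2, and -0.051 to 0.18 over the libraries left out. For astrocytes over bulk tissue, Fkbp5 was -0.0069 without the astrocyte libraries numbered 2. Over the libraries left out, Lcn2 was -0.25 to 1.49, Iigp1 -0.74 to 0.20, Tgm1 -0.31 to 0.45 and Cd109 -0.53 to 0.20. With edgeR, Iigp1 was 0.14, Tgm1 -0.014 and Cd109 0.23, and with DESeq2 they were 0.13, -0.068 and 0.25. For non-astrocytes over bulk tissue, Cd44 was -0.14 and Ptx3 -0.19 without the non-astrocyte libraries numbered 2, Sphk1 was -0.0058 with TMM factors and -0.17 without those numbered 1, and over the libraries left out Ptx3 was -0.33 to 1.02 and Sphk1 -0.10 to 0.11. Calls gained without 1 library were those of H2-D1, Fkbp5, Psmb8 and B3gnt5 for astrocytes over bulk tissue, and of Cd44, Serpina3n, Aspg, H2-T23 and Fbln5 for non-astrocytes over bulk tissue. Among these, Fkbp5 was 0.54 without deep layer astrocyte replicate 3, B3gnt5 was -1.69 without upper layer bulk tissue replicate 1, and Serpina3n was -1.82 and -1.85 without upper or deep layer bulk tissue replicate 1.

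With the replicate block across all groups, Iigp1 was 0.19 and Cd109 0.13 in astrocytes over bulk tissue, Fkbp5 was called higher (0.68), H2-D1 was called lower (-0.41) and Serping1 was no longer called (-0.47). Fbln5 became called higher in non-astrocytes than in bulk tissue (0.88). The block changed no other call of a member. Genes called between layers with that block numbered 89 in astrocytes, 3 in non-astrocytes, 168 in bulk tissue and 3 for the difference between astrocytes and non-astrocytes, and with the block within fraction 188, 33, 261 and 4, where 18, 1, 103 and 1 were called without a block.

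Those layer counts also moved with the tool. DESeq2 called 142, 138, 428 and 61 genes, with 1 panel member in bulk tissue, and edgeR called 7 in non-astrocytes and 167 in bulk tissue. In non-astrocytes 2 genes were called with a pseudocount of 5 and 13 without the filter, and in bulk tissue 231 with a pseudocount of 5. For the difference, 0 were called on library totals. Without the non-astrocyte libraries of either number, 0 genes were called in non-astrocytes and 0 for the difference. Without the astrocyte libraries numbered 2, the counts were 21 in non-astrocytes, 196 in bulk tissue and 6 for the difference. Leaving out 1 library gave 12 to 56 in astrocytes, 0 to 12 in non-astrocytes, 11 to 216 in bulk tissue and 0 to 2 for the difference.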
